A study of Mus musculus with 2 samples.

Results

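The SOX family of transcription factors was followed through the cells of the neonatal mouse pituitary that carry a *Sox9* reporter. The 10 genes described are *Sox2*, *Sox3*, *Sox21*, *Sox8*, *Sox9*, *Sox4*, *Sox11*, *Sox12*, *Sox5* and *Sox6*, which were found by symbol among the 31055 features of each count table. Another 10 genes of the family in the tables, *Sry* included, are given by their totals. The cells came from *Sox9iresGFP/+* pituitaries at postnatal day 3 (P3), of which 3 of males and 3 of females were dissociated, sorted for GFP and sequenced as 1 droplet library per sex. Both libraries carry the reporter on 1 allele of *Sox9*, and there is no library of unsorted cells or of another genotype, so every level of *Sox9* is a level among cells that the gate took for *Sox9* promoter activity. With 1 pooled library per sex there is no replicate, no test was made, and values in parentheses are 95% limits of counting error only. Limits of a ratio divide the lower limit of 1 level by the upper limit of the other, so they are wider than 95%.

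SOX proteins bind DNA through an HMG box and are grouped by the likeness of that domain. SOX2 and SOX3 (group B1) maintain progenitors in many tissues, and SOX2 together with SOX9 (group E) marks the stem cells (SCs) of the postnatal pituitary. SOX4, SOX11 and SOX12 (group C) are best known from newly differentiating neurons, where SOX4 and SOX11 switch on neuronal genes after the progenitor factors have acted. SOX5 and SOX6 (group D) lack an activation domain and act beside SOX9 in cartilage, and SOX21 (group B2) counters group B1 proteins.

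*Sox2*, *Sox4* and *Sox11* had the most UMIs among the members, and their promoters are shown so that a gene that was lower and a pair that was higher in differentiating-like cells can be set side by side. *Sox9* and *Sox3* are the members that were not matched in the RefSeq promoter table used. All 3 genes have a single exon. On mm10 (GRCm38.p6) the windows are chr3:34649745-34649994 on the plus strand for *Sox2*, chr13:28953714-28953949 on the minus strand for *Sox4* and chr12:27342719-27342968 on the minus strand for *Sox11*, upstream of the RefSeq first exon in each case. They hold 250 bases for *Sox2* and *Sox11* and 236 for *Sox4*. Each sequence is written from 5′ to 3′ along the strand of the gene, and capitals mark the CCAAT box, CCAAT or its reverse complement ATTGG, searched on both strands.
Sox2: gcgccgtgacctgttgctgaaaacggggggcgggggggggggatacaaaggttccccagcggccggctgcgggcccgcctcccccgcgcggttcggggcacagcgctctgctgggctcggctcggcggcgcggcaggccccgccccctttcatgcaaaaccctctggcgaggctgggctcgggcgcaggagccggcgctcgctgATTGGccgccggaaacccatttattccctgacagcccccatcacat
Sox4: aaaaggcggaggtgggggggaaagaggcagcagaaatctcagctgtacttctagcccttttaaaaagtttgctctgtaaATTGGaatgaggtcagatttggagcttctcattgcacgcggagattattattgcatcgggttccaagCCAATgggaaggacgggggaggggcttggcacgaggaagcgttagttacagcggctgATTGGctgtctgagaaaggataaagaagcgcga
Sox11: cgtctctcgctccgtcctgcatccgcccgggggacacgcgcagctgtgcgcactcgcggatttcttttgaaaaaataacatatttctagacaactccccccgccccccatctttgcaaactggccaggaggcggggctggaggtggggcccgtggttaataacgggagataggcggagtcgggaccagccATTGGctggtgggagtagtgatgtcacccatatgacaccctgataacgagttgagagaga
The CCAAT box was looked for after these sequences had been read. It occurs 1 time in the *Sox2*, 3 times in the *Sox4* and 1 time in the *Sox11* window, and in 33.9% of the 32851 windows of 250 bases before RefSeq starts. The core motif of SOX proteins, AACAAT or ATTGTT, is in none of these 3 windows and in 9.42% of all windows. The core motif of TCF/LEF proteins, TCAAAG or CTTTGA, is in none of the 3 and in 13.8% of all. These windows differ in base composition, since G and C make up 72.0% of the *Sox2*, 50% of the *Sox4* and 58.0% of the *Sox11* window. Of the 10 members, 8 were matched in the table. Among those not shown, the *Sox12* window held a CCAAT box and those of *Sox5*, *Sox8* and *Sox21* did not. The TCF/LEF motif was in the *Sox21* window, and *Sox6*, with several windows, held all 3 motifs among them.

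The male library held 10410 cells and the female library 5711 after filtering, with medians of 8902.5 and 9789 UMIs (unique molecular identifiers, 1 per captured transcript) per cell. In the male library 34.0% of cells had fewer than 2000 genes, against 4.69% in the female library, and 19 barcodes were found in both. Each cell was given a class by the number of marker genes with at least 1 UMI, and no SOX gene was a marker. SC-like cells had 3 or more of 8 SC markers such as *Ednrb* and *Aldh1a2*, and the other classes needed 4 or more of their lists. A cell that reached the list of another class was not called SC-like, whatever its SC markers. Differentiating-like cells carried genes such as *Lef1*, *Smoc2* and *Hes6*, endocrine-like cells carried secretory genes such as *Chgb* and *Scg2*, and cells with both lists were called transitional. The labels call the samples stem cells, yet SC-like cells made up 18.4% (male) and 40.6% (female) of the cells kept. Cycling-like cells, another 11.4% and 15.2%, held the 8 SC markers at a like summed level, 2494 and 2283 CPM. The other classes were cycling-like (1191 male and 866 female cells), cycling differentiating-like (134 and 58), differentiating-like (1018 and 793), transitional (685 and 330), endocrine-like (1294 and 342) and mesenchymal-like (658 and 306). Another 3002 male (28.8%) and 612 female (10.7%) cells reached no class, with median depths of 1256.5 and 7591.5 UMIs. A further 509 and 86 cells were called mixed and left out. They reached the mesenchymal list beside an endocrine, cycling or differentiation list, or the endocrine beside a cycling list. Likely doublets were 27.5% and 37.2% of them. Dividing endocrine cells, which the paper reports, would also fall among them and were therefore not followed. Differentiating-like and endocrine-like cells were deeper than SC-like cells, with medians of 12370 and 11744, 13232 and 13216, and 8599 and 8482.5 UMIs. Levels are CPM, the UMIs of a gene scaled by all UMIs of its class, given for the male library before the female library.

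The classes were set by their own markers, whose levels are a description. The summed level of the 8 SC markers was 2531 and 2427 CPM in SC-like, 518 and 494 CPM in differentiating-like and 257 and 234 CPM in endocrine-like cells, with *Gfra3* at 0 in SC-like cells of both libraries. That of the 8 differentiation markers was 352 and 244, 3020.1 and 2429 and 673 and 616 CPM, and that of the 7 secretory genes 212 and 211, 438 and 504 and 4126 and 4255 CPM. Markers of pituicytes, immune cells and red blood cells summed to at most 6.11, 3.86 and 2.07 CPM in any class, those of Schwann cells to 35.4 CPM. Those of endothelial cells and pericytes reached 44.8 and 271 CPM, both in mesenchymal-like cells.

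SC-like and differentiating-like cells differed in opposite directions in 2 pairs of members. *Sox2* and *Sox9* were lower, and *Sox4* and *Sox11* higher, in differentiating-like than in SC-like cells. Each of these 4 differences had the same direction in both libraries with limits that do not meet. Among all 8598 features with at least 10 CPM in either class in both libraries, 10.7% were at least 2-fold lower and 3.93% at least 2-fold higher in differentiating-like than in SC-like cells of both libraries. Of the 7 members that reached this level, *Sox9* and *Sox6* were at least 2-fold lower and *Sox11* at least 2-fold higher. *Sox3*, *Sox21* and *Sox8* did not reach it. The median ratio over the 7 members was 0.792 and 0.783, and over all features tested it was 0.995 and 0.988.

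**Figure D1:**
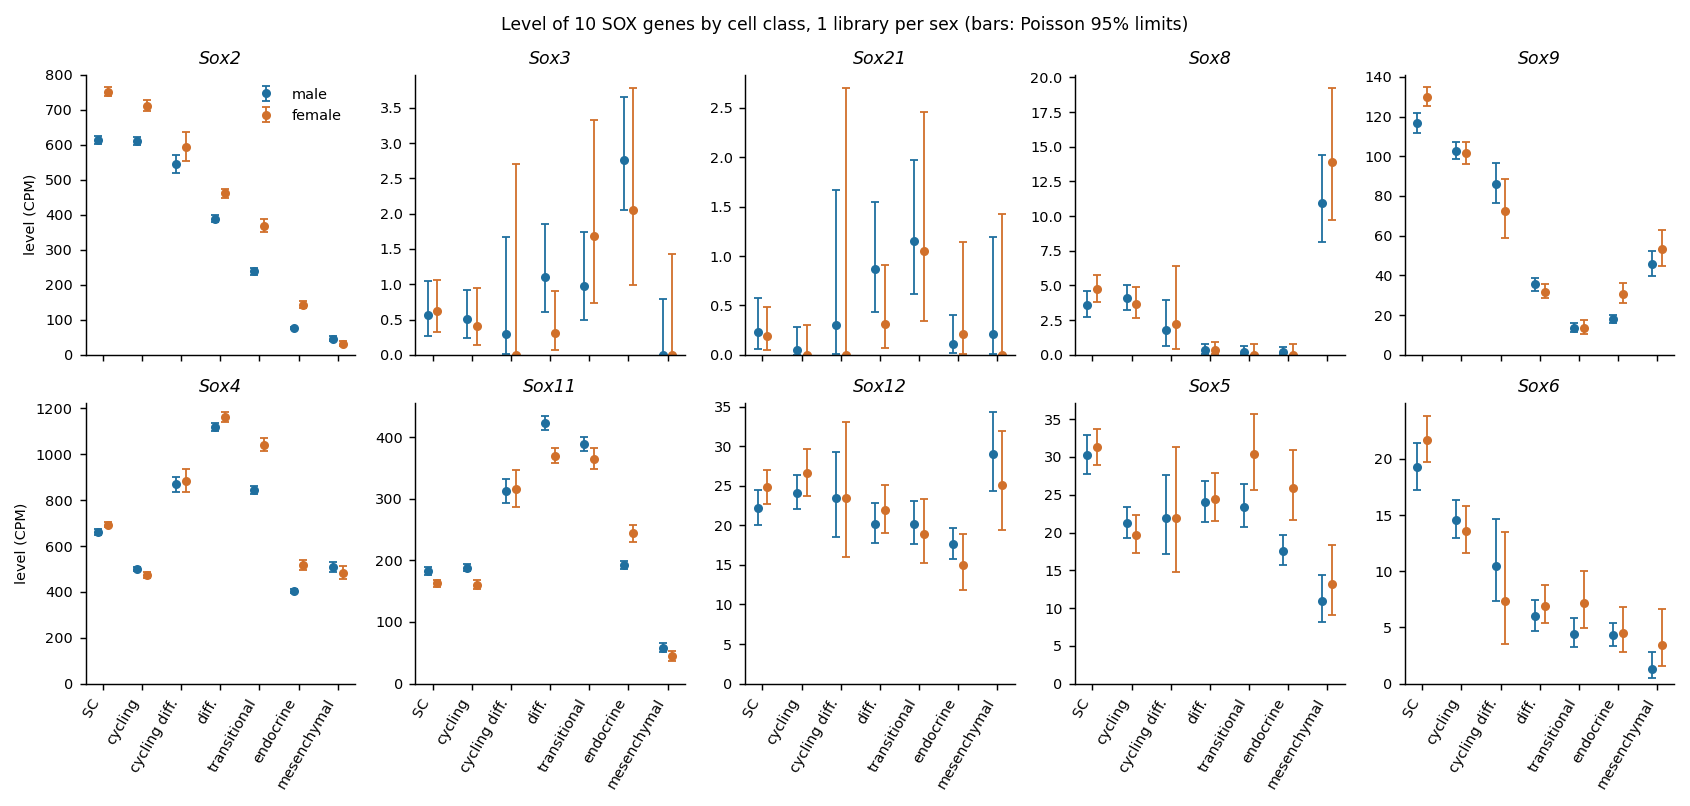
Level (CPM, linear axes that start at 0 and differ between panels) of each of the 10 SOX genes in 7 cell classes, for the male (blue) and female (orange) library; bars are exact Poisson 95% limits of counting error. *Sox2* falls from 612 and 752 CPM in SC-like to 76.5 and 143 CPM in endocrine-like cells, while *Sox4* and *Sox11* peak in differentiating-like cells at 1119.7 and 1161 CPM and 423 and 369.6 CPM, male before female.

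*Sox2*, which pituitary progenitors need, stood at 612 (601 to 624) CPM in males and 752 (740.0 to 764) CPM in females in SC-like cells. It was 609.9 and 711 CPM in cycling-like, 544 and 593 CPM in cycling differentiating-like and 389 and 461 CPM in differentiating-like cells. The limits of SC-like and cycling-like cells overlap in the male library, and the level was lower in each later class in both libraries. In transitional cells *Sox2* was 238 and 369 CPM, and in endocrine-like cells 76.5 and 143 CPM. The ratio of differentiating-like to SC-like cells was 0.635 (0.606 to 0.665) and 0.613 (0.586 to 0.642), and that of endocrine-like to SC-like cells 0.125 (0.116 to 0.134) and 0.19 (0.174 to 0.208). *Sox2* thus fell less than 2-fold on the first step and 5.08-fold and 3.22-fold from differentiating-like to endocrine-like cells.

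The share of cells with a *Sox2* UMI was also lower in differentiating-like and later classes, but not ordered as the level among the first 3 classes. After each cell was drawn down to 5000 UMIs, it was 90.1% (88.5 to 91.5%) and 91.8% (90.6 to 92.9%) in SC-like and 75.3% (72.4 to 78.0%) and 80.9% (77.9 to 83.6%) in differentiating-like cells. In cycling-like cells it was 91.6% and 92.4%, and in cycling differentiating-like cells 85.7% (78.6 to 91.2%) and 93.1% (83.3 to 98.1%). It was 56.9% and 73.0% in transitional and 18.1% (15.9 to 20.6%) and 34.6% (29.5 to 40%) in endocrine-like cells. Without drawing down, the shares were 91.1% and 96.4% in SC-like and 31.7% and 52.9% in endocrine-like cells. Mesenchymal-like cells, which should lack *Sox2*, had 6.31% (4.23 to 8.99%) and 3.6% (1.74 to 6.52%) of cells with a UMI and median depths of 6751 and 7660 UMIs, against 13232 and 13216 in endocrine-like cells before drawing down. The endocrine-like share therefore lay above this background in both libraries.

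*Sox3*, the other B1 gene and one that acts in the hypothalamus and early pituitary, had few UMIs. Its level in SC-like cells was 0.566 and 0.619 CPM, from 10 and 13 UMIs. It was highest in endocrine-like cells, at 2.77 (2.05 to 3.66) and 2.06 (0.986 to 3.78) CPM from 49 and 10 UMIs, and the limits of the male library lie apart from those of its SC-like cells while those of the female library meet them. Within endocrine-like cells it was 8.13 (5.03 to 12.4) and 5.34 (1.73 to 12.5) CPM in the POU1F1 lineage, from 21 and 5 UMIs. Mesenchymal-like cells had 0 UMIs of *Sox3*, which allows up to 0.644 and 1.16 CPM at 3 counts. *Sox21* had 4 and 4 UMIs in SC-like, 11 and 3 in differentiating-like and 13 and 5 in transitional cells, so that no order between the classes can be read from it in the female library.

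*Sox9* was 117 (112 to 122) CPM in males and 130 (125 to 135) CPM in females in SC-like cells. It was 103 and 101 CPM in cycling-like, 85.9 and 72.5 CPM in cycling differentiating-like and 35.5 and 31.8 CPM in differentiating-like cells. Cycling cells thus kept most of their *Sox9* and differentiating-like cells did not, with a ratio of the latter to SC-like cells of 0.304 (0.265 to 0.348) and 0.245 (0.21 to 0.284). Of the features tested, 5.23% and 3.76% had a lower ratio. Transitional cells had the lowest level, 13.6 and 13.7 CPM, and endocrine-like cells had 18.1 and 30.7 CPM. *Sox9* was therefore lowest in transitional cells, whereas *Sox2* was lower still in endocrine-like cells.

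The drop in *Sox9* was larger than that in *Sox2* at the differentiating-like stage. The ratios to SC-like cells were 0.304 and 0.245 for *Sox9* and 0.635 and 0.613 for *Sox2*, with limits that do not meet in either library. In endocrine-like cells the order was the other way round, at 0.155 and 0.236 for *Sox9* and 0.125 and 0.19 for *Sox2*, with limits that meet in both libraries. Cells with both genes were fewer in the differentiating-like class, since 34.2% and 37.1% of SC-like and 10.1% and 10.0% of differentiating-like cells had a UMI of each after drawing down to 5000 UMIs.

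The eGFP transcript of the reporter was, like *Sox9*, highest in SC-like cells among the 4 classes compared. Its level was 26.7 and 17.1 CPM in SC-like, 8.1 and 4.86 CPM in differentiating-like, 4.61 and 1.69 CPM in transitional and 3.44 and 2.67 CPM in endocrine-like cells. Beside these 4 classes, it was 23.5 and 16.4 CPM in cycling-like and 10.3 and 8.5 CPM in mesenchymal-like cells. For each *Sox9* UMI there were 0.228 and 0.131 eGFP UMIs in SC-like cells, and 0.228 and 0.153 in differentiating-like cells. The value was 0.34 and 0.123 in transitional and 0.19 and 0.0872 in endocrine-like cells. Between the former and the latter the limits of eGFP meet in both libraries. Those of *Sox9* lie apart in both, with the higher level in endocrine-like cells. The sort, which reads GFP protein, thus held classes in which both transcripts were low.

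The class taken as the background of *Sox2* could not serve for *Sox9*. Mesenchymal-like cells had 45.7 and 53.3 CPM of *Sox9*, above differentiating-like and endocrine-like cells in both libraries, and 18.2% (14.8 to 22.2%) and 20.1% (15.6 to 25.3%) of them had a UMI, against 12.7% and 12.0% of differentiating-like cells. In the male library they held 214 *Sox2* and 213 *Sox9* UMIs, where SC-like cells held 10811 and 2062. The part of RNA from other cells in these counts was not tested. The shares of 6.32% and 10.4% in endocrine-like and 6.05% and 3.64% in transitional cells are therefore given without a background. Without drawing down, *Sox9* had a UMI in 51.7% and 55.5% of SC-like, 25.2% and 22.3% of differentiating-like and 15.4% and 21.6% of endocrine-like cells.

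*Sox8*, the other E gene measured and one known from glia and testis, was 3.57 and 4.71 CPM in SC-like and 4.06 and 3.67 CPM in cycling-like cells. It had 4 and 3 UMIs in differentiating-like, 2 and 0 in transitional and 4 and 0 in endocrine-like cells, against 63 and 99 in SC-like cells. It was highest in mesenchymal-like cells at 10.9 (8.15 to 14.4) and 13.9 (9.74 to 19.2) CPM, which is 3.07-fold and 2.95-fold the SC-like level. *Sox8* was therefore low in the same 3 classes as *Sox9*, at a level where single UMIs count.

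*Sox4* was 660.1 (648 to 672) CPM in males and 693 (682 to 705) CPM in females in SC-like cells and 1119.7 (1101 to 1138) CPM in males and 1161 (1140.0 to 1183) CPM in females in differentiating-like cells. The ratio was 1.7 (1.64 to 1.76) and 1.67 (1.62 to 1.73), which is under 2-fold, while 93.1% and 92.5% of the features tested had a lower one. In cycling-like cells *Sox4* was 500.5 and 473 CPM, below SC-like cells in both libraries, and in cycling differentiating-like cells it was 869 and 883 CPM. Cells with cell cycle markers thus had more *Sox4* where they also carried differentiation markers. *Sox4* was 843 and 1042 CPM in transitional and 405 and 517 CPM in endocrine-like cells, the latter 2.77-fold and 2.25-fold below differentiating-like cells. Most cells had a UMI of it at 5000 UMIs, from 91.8% and 91.4% in SC-like and 98.0% and 97.7% in differentiating-like to 75.5% and 75.5% in endocrine-like cells, and mesenchymal-like cells had 83.6% and 78.4%. Without drawing down, the shares were 91.3% and 94.3% in SC-like and 98.8% and 99.9% in differentiating-like cells. No class lacked *Sox4*, so none served as its background.

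*Sox11*, which shares targets with *Sox4* in neurons, was 183 (177 to 189.6) CPM in males and 163 (157 to 168) CPM in females in SC-like cells and 423 (412 to 435) CPM in males and 369.6 (358 to 382) CPM in females in differentiating-like cells. The ratio of 2.31 (2.17 to 2.46) and 2.27 (2.13 to 2.43) was above that of *Sox4* in both libraries, and 96.5% and 96.3% of the features tested had a lower one. Cycling-like cells, at 188 and 161 CPM, had the level of SC-like cells within the limits. Cycling differentiating-like cells had 312 and 316 CPM, transitional cells 389 and 364 CPM and endocrine-like cells 193 and 244 CPM. Against SC-like cells, the endocrine-like ratio was 1.05 (0.985 to 1.13) and 1.5 (1.37 to 1.64), so that it lay above 1 beyond counting error in the female library and not in the male library. With 1 more marker per class the male ratio lay above 1 as well, at 0.13 (0.03 to 0.24) on the log2 scale. Mesenchymal-like cells were the lowest, at 58.2 and 44.4 CPM. The share of cells with a UMI was 52.0% and 46.7% in SC-like, 78.6% and 76.3% in differentiating-like, 52.4% and 52.2% in endocrine-like and 15.1% and 18.7% in mesenchymal-like cells at 5000 UMIs. Before drawing down it was 66.1% and 63.5% in SC-like and 92.0% and 90.3% in differentiating-like cells.

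*Sox12*, the remaining C gene, did not follow *Sox4* and *Sox11*. It was 22.1 (20.0 to 24.4) and 24.8 (22.7 to 27.0) CPM in SC-like and 20.2 (17.8 to 22.8) and 21.9 (19.1 to 25.1) CPM in differentiating-like cells, with a ratio of 0.913 (0.729 to 1.14) and 0.884 (0.705 to 1.1), whose limits include 1. Its ratio lay below those of *Sox4* and *Sox11* with limits that do not meet.

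*Sox5* was 30.3 and 31.3 CPM in SC-like, 24.0 and 24.5 CPM in differentiating-like and 17.6 and 25.9 CPM in endocrine-like cells. Its highest and lowest levels among the pituitary classes thus lay within 2-fold of each other in both libraries. *Sox6* was 19.3 and 21.7 CPM in SC-like, 14.5 and 13.6 CPM in cycling-like, 5.98 and 6.92 CPM in differentiating-like and 4.29 and 4.53 CPM in endocrine-like cells. Its ratio of differentiating-like to SC-like cells, 0.31 (0.22 to 0.433) and 0.319 (0.226 to 0.445), has limits that meet those of *Sox9* and lies below that of *Sox5* with limits that do not meet. Both D genes were low in mesenchymal-like cells, *Sox5* at 10.9 and 13.1 CPM and *Sox6* at 1.29 and 3.48 CPM.

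The change from *Sox2* and *Sox9* to *Sox4* and *Sox11* was put into 1 number, the log2 ratio of the summed *Sox4* and *Sox11* UMIs to the summed *Sox2* and *Sox9* UMIs. A value of 0 means equal sums. The ratio was 0.21 (0.18 to 0.24) and -0.04 (-0.07 to -0.01) in SC-like and -0.05 (-0.08 to -0.02) and -0.36 (-0.40 to -0.32) in cycling-like cells. It was 0.91 (0.83 to 0.98) and 0.85 (0.73 to 0.97) in cycling differentiating-like and 1.86 (1.82 to 1.91) and 1.63 (1.59 to 1.68) in differentiating-like cells. Cycling cells without differentiation markers therefore stood at or below SC-like cells, and those with them stood between SC-like and differentiating-like cells in both libraries. Likely doublets were 11.9% and 27.6% of cycling differentiating-like and 1.43% and 5.2% of cycling-like cells. Without them the ratio of cycling differentiating-like cells was 0.93 (0.85 to 1.02) and 1.01 (0.86 to 1.17), again between SC-like cells at 0.19 (0.16 to 0.23) and -0.05 (-0.08 to -0.02) and differentiating-like cells at 1.89 (1.85 to 1.94) and 1.71 (1.66 to 1.76). It was 2.29 (2.23 to 2.35) and 1.88 (1.80 to 1.95) in transitional and 2.66 (2.59 to 2.73) and 2.13 (2.02 to 2.24) in endocrine-like cells. From SC-like to differentiating-like cells it rose by 1.65 (1.58 to 1.73) and 1.68 (1.60 to 1.75), and from SC-like to endocrine-like cells by 2.45 (2.34 to 2.56) and 2.17 (2.03 to 2.31). Both sides of the ratio moved from SC-like to differentiating-like cells. From there to endocrine-like cells *Sox2*, *Sox4* and *Sox11* were all lower, *Sox2* the most.

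**Figure D2:**
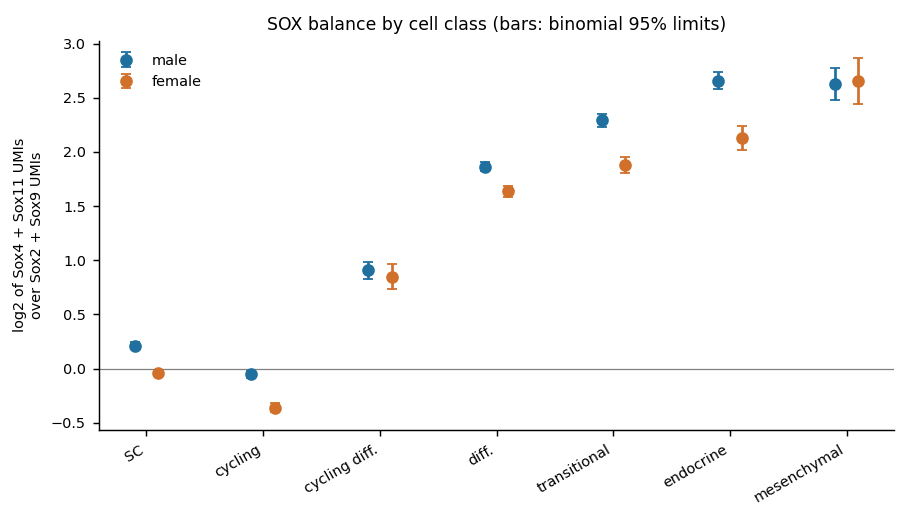
Log2 ratio of summed *Sox4* and *Sox11* UMIs to summed *Sox2* and *Sox9* UMIs (y axis, linear in log2 units, line at 0) in 7 cell classes (x axis), male library in blue and female in orange, with binomial 95% limits of counting error. Outside the mesenchymal-like class, at 2.63 and 2.65, values run from -0.05 and -0.36 in cycling-like to 2.66 and 2.13 in endocrine-like cells. The female value is the lower one in each class but the mesenchymal-like class.

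The ratio of mesenchymal-like cells was 2.63 (2.48 to 2.78) and 2.65 (2.44 to 2.86), without a rise of *Sox11*. Its limits met those of endocrine-like cells in the male library and lay above them in the female library. In mesenchymal-like cells it was made by *Sox4* at 508 and 484 CPM beside low *Sox2*, and *Sox11* was 3.15-fold and 3.66-fold lower than in SC-like cells. Without likely doublets, which were 11.1% and 4.25% of these cells, the ratio was 3.13 (2.95 to 3.32) and 3.32 (3.05 to 3.60). That of endocrine-like cells was then 2.95 (2.86 to 3.03) and 2.27 (2.15 to 2.39).

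The same cells were also ordered by the number of the 8 differentiation markers with a UMI at 5000 UMIs, over SC-like, differentiating-like and unclassified cells. *Sox2* went from 3.11 and 3.8 UMIs per cell with no marker to 1.97 and 2.6 with 3 markers and 1.82 and 2.05 with 5 or more. *Sox9* went from 0.542 and 0.648 to 0.219 and 0.186 and 0.158 and 0.100. *Sox4* went from 2.87 and 3.07 to 5.09 and 5.37 and 5.74 and 5.91. *Sox2* and *Sox9* thus declined while *Sox4* rose, in steps rather than at 1 number of markers. Single steps went the other way with limits that meet. Male *Sox9* was 0.607 with 1 marker, male *Sox2* 1.70 with 4 markers and female *Sox4* 6.03 with 4 markers. *Sox11* was 0.829 and 0.751 with no marker, 0.828 and 0.735 with 1 marker, 1.28 and 1.03 with 2 and 2.3 and 2.02 with 5 or more. It did not differ between 0 and 1 marker within the limits and rose from 2 markers on. *Sox6* went from 0.098 and 0.109 to 0.019 and 0.0131 with 4 markers and 0.0302 and 0.0500 with 5 or more, the last from 8 and 11 UMIs, and *Sox12* from 0.102 and 0.12 to 0.0943 and 0.0909 with 5 or more, the latter with limits that meet throughout.

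**Figure D3:**
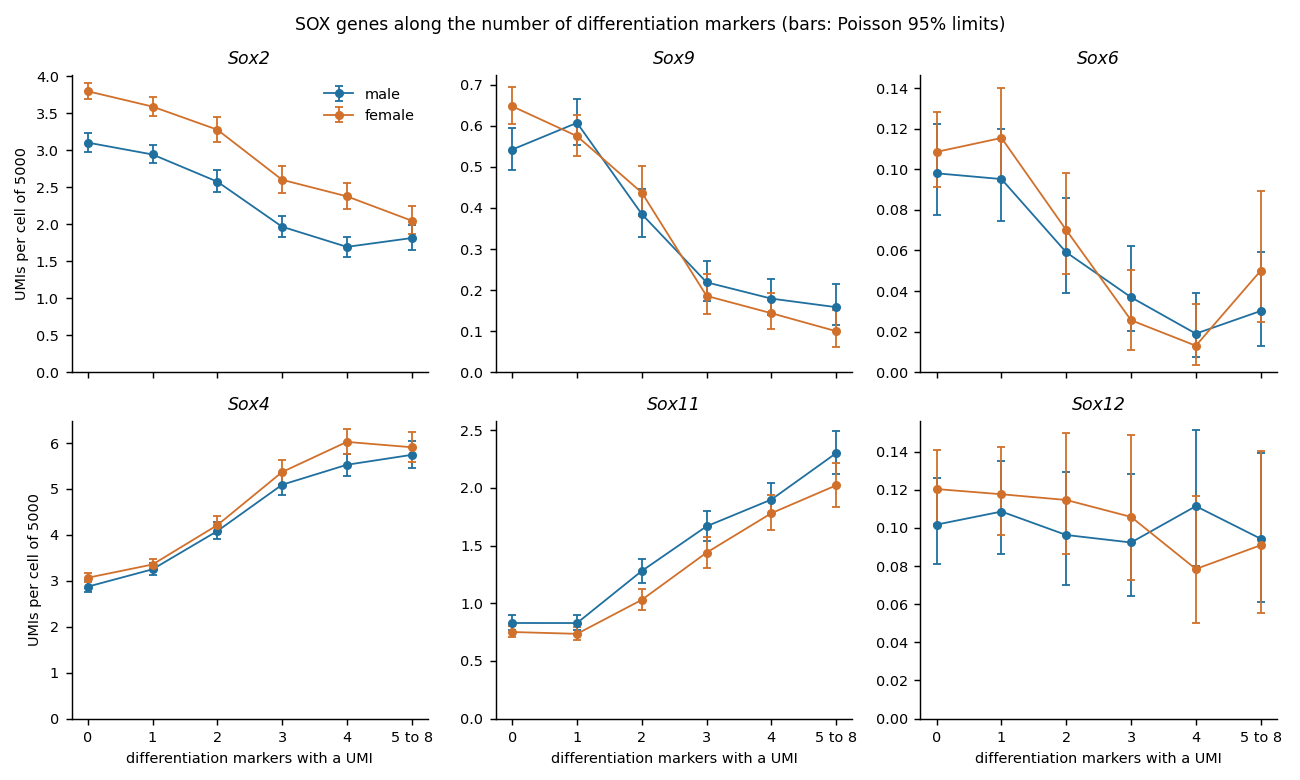
UMIs per cell (each cell drawn down to 5000 UMIs; linear axes from 0) of 6 SOX genes against the number of differentiation markers with a UMI, male library in blue and female in orange, with Poisson 95% limits. *Sox2* and *Sox9* decline and *Sox4* and *Sox11* rise with the number of markers in both libraries, and *Sox12* stays between 0.0784 and 0.12 UMIs per cell.

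*Sox2* and *Sox11* often met in 1 cell. A UMI of *Sox2* and 1 of *Sox11* were found together in 47.3% and 42.9% of SC-like and 59.5% and 61.0% of differentiating-like cells at 5000 UMIs. Cells with *Sox11* and no *Sox2* were 4.73% and 3.82% of SC-like, 19.1% and 15.3% of differentiating-like, 29.9% and 20.6% of transitional and 42.1% and 31.6% of endocrine-like cells. The share with *Sox11* alone thus grew from class to class. Cells with both genes were the most frequent kind in differentiating-like cells of both libraries. The same held in cycling differentiating-like cells, at 54.9% and 67.2%, and in transitional cells, at 46.2% and 55.2%. In SC-like and cycling-like cells it held in the male library only. A cell without a UMI at this depth may still hold the transcript. Whether the pair met more often than the single shares of each gene imply was not tested. Cells marked as likely doublets made up 6.09% and 4.92% of differentiating-like, and 10.8% and 3.94% of transitional cells, and without them a UMI of each was found in 47.1% and 42.6% of SC-like and 59.3% and 60.5% of differentiating-like cells.

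**Figure D4:**
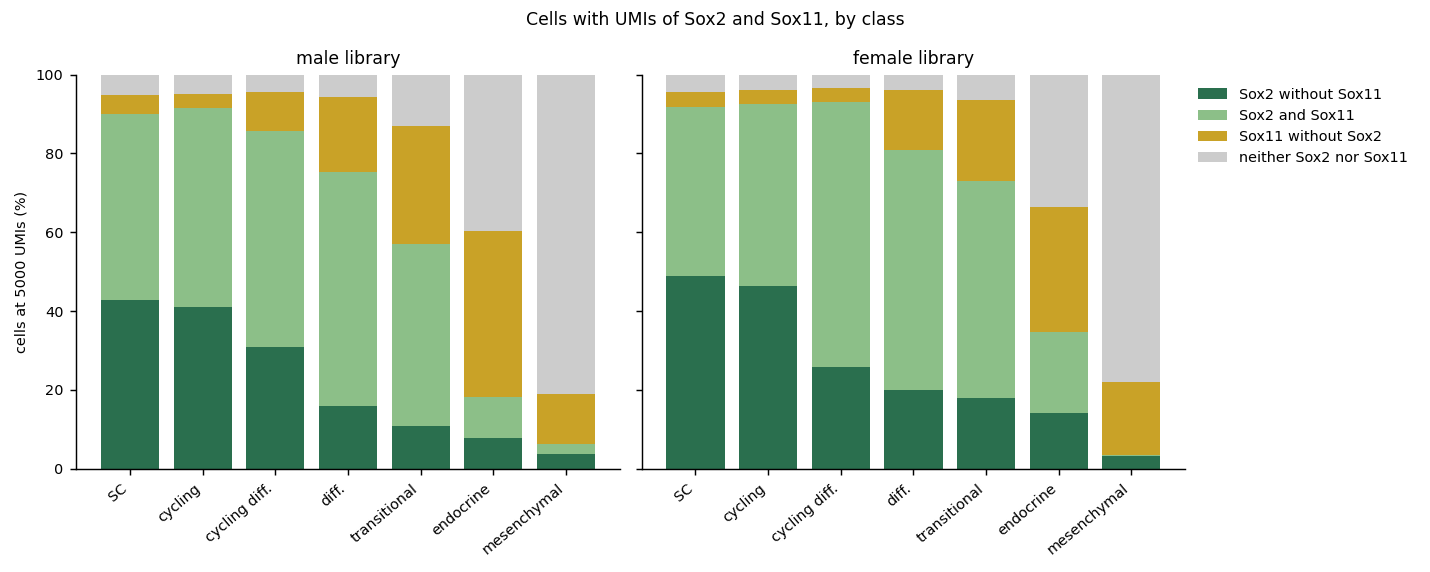
Share of cells (%, axis from 0 to 100) with UMIs of *Sox2* without *Sox11*, of both, of *Sox11* without *Sox2* or of neither, in 7 classes, each cell drawn down to 5000 UMIs, male library left and female library right. Cells with both make up 59.5% and 61.0% of differentiating-like cells, and cells with neither 81.1% and 78.1% of mesenchymal-like cells, male before female.

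Within each class the members varied further. SC-like cells with 2 or more *Ednrb* UMIs (339 male and 886 female cells) were set beside those with 2 or more of *Aldh1a2* and none of *Ednrb* (908 and 774). *Sox2* was 771 (741 to 802) and 827 (808 to 847) CPM in the first and 585 (569.7 to 601) and 689 (669.9 to 708) CPM in the second. *Sox9* was 144 and 148 CPM against 111 and 119.6 CPM. *Sox6* was 27.3 and 29.0 CPM against 15.9 and 17.2 CPM. These 3 genes, all higher in SC-like than in differentiating-like cells, were higher in the *Ednrb*-rich subset of both libraries with limits that do not meet. *Sox4*, at 662 and 704 CPM against 666 and 709 CPM, had limits that meet in both libraries. *Sox11*, at 150.0 and 164 CPM against 195 and 166 CPM, was lower in the *Ednrb*-rich subset beyond counting error in the male library and not in the female library.

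Differentiating-like cells with *Cdkn1a*, a cell cycle inhibitor, and without *Smoc2* (148 and 108 cells) had SOX levels closer to SC-like cells, *Sox4* apart, than those with *Smoc2* and without *Cdkn1a* (519 and 396). *Sox2* was 484 and 633 CPM in the former and 346 and 398 CPM in the latter. *Sox9* was 78.5 (66.4 to 92.2) and 61.5 (48.5 to 76.9) CPM against 19.5 (16.2 to 23.3) and 19.6 (15.9 to 24.0) CPM. *Sox6* was 15.8 and 12.0 CPM against 3.04 and 5.99 CPM, with limits that do not meet in the male library only. *Sox11* was lower in the former, at 333 and 270.0 CPM against 449 and 399 CPM. *Sox4*, by contrast, was 1136 and 1140.0 CPM against 1074 and 1107 CPM, so that its limits meet in both libraries and lie above those of SC-like cells in both subsets. Differentiating-like cells with a UMI of *Shh* (70 and 41) had 927 and 909 CPM of *Sox4*, against 1135 and 1176 CPM without.

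**Figure D5:**
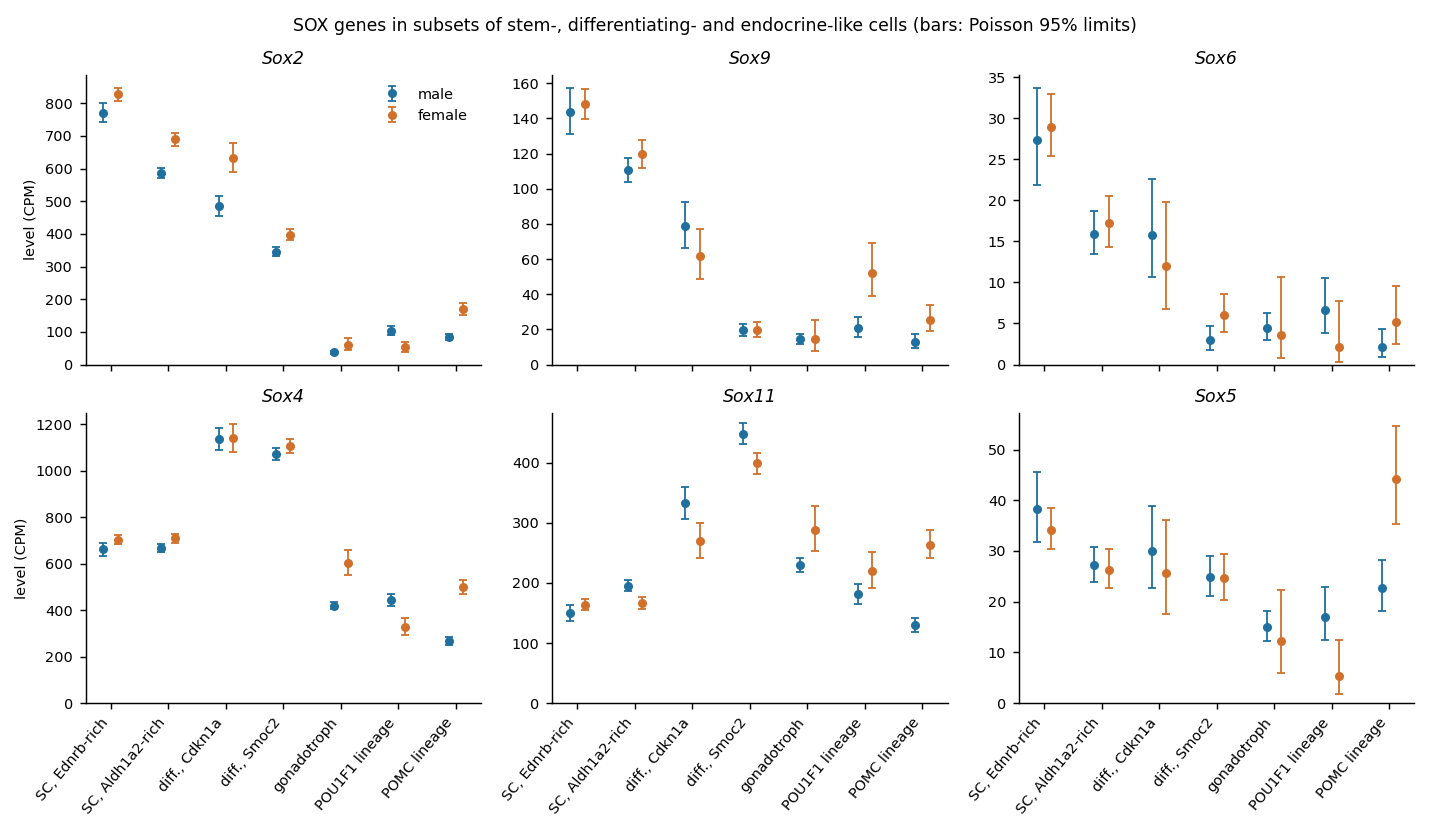
Level (CPM, linear axes from 0) of 6 SOX genes in subsets of SC-like, differentiating-like and endocrine-like cells, male library in blue and female in orange, with Poisson 95% limits. *Sox9* falls between the *Cdkn1a* and the *Smoc2* subset of differentiating-like cells, from 78.5 and 61.5 CPM to 19.5 and 19.6 CPM, where *Sox4* stays between 1074 and 1140 CPM.

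In cycling-like cells the members were close to SC-like cells. None of the 7 that reached 10 CPM differed at least 2-fold, where 0.277% of 8665 features were lower and 5.35% higher by that much. *Sox4* was 1.32-fold and 1.47-fold and *Sox5* 1.43-fold and 1.59-fold below SC-like cells. Within cycling-like cells, those with S phase markers alone (420 and 390) had 28.4 (24.4 to 32.9) and 33.1 (28.2 to 38.6) CPM of *Sox12*, and those with markers of G2 and mitosis alone (324 and 168) had 15.7 (11.7 to 20.6) and 9.89 (6.2 to 15.0) CPM. *Sox8* was 6.36 and 6.34 CPM in the former and 2.42 and 2.25 CPM in the latter, from 40 and 31 against 8 and 5 UMIs. *Sox2*, at 633 and 724 CPM against 581 and 734 CPM, had limits that lie apart in the male and meet in the female library. *Sox11* was 174 and 154 CPM against 215 and 191 CPM. Of the 10 members, *Sox12* and *Sox11* had limits that lie apart in both libraries, in opposite directions.

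In endocrine-like cells, 11.3% of 9023 features were at least 2-fold lower and 8.68% at least 2-fold higher than in SC-like cells of both libraries. *Sox2*, *Sox9* and *Sox6* were lower by that much and no member was higher. Against differentiating-like cells, where 4.12% of 8585 features were lower and 8.6% higher, *Sox2* and *Sox4* were lower, among 6 members that reached 10 CPM. *Sox11* was 2.19-fold and 1.52-fold lower. UMIs of 7 hormone genes made up 6.96% and 7.53% of all UMIs of endocrine-like cells, and lower every other gene's CPM there by about that share.

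The endocrine lineages, told apart by 2 or more lineage markers, differed in their levels. In gonadotroph-like cells (517 male and 61 female), *Sox2* was 37.8 (33.3 to 42.7) and 60.8 (45.2 to 80.2) CPM and *Sox11* 230.3 and 288 CPM. In POMC-lineage-like cells, corticotrophs and melanotrophs (198 and 119), *Sox2* was 84.1 (75.0 to 94.0) and 169 (151 to 189) CPM and *Sox11* 130.2 and 264 CPM. In POU1F1-lineage-like cells, which hold somatotrophs, lactotrophs and thyrotrophs (162 and 64), *Sox2* was 103 (91.3 to 117) and 52.3 (38.7 to 69.2) CPM and *Sox11* 181 and 219.9 CPM. In both libraries *Sox2* was lower in gonadotroph-like than in POMC-lineage-like cells beyond counting error. The order of *Sox11* was not the same in both, since the POMC lineage was the lowest in the male library only. *Sox5* was 22.8 and 44.1 CPM in the POMC lineage and 15.0 and 12.2 CPM in gonadotroph-like cells, with limits that lie apart in the female library and meet in the male library.

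In mesenchymal-like cells, the class outside the epithelial lineage, 10.4% of 9155 features were at least 2-fold lower and 11.4% at least 2-fold higher than in SC-like cells of both libraries. Of 8 members that reached 10 CPM, *Sox2*, *Sox9*, *Sox11*, *Sox5* and *Sox6* were lower and *Sox8* was higher. *Sox12* was 29.0 and 25.1 CPM and *Sox4* 508 and 484 CPM. The summed level of the 7 mesenchymal markers was 14313 and 16584 CPM in these cells and 31.6 and 19.9 CPM in SC-like cells. Their summed level of SC markers was 862 and 763 CPM, and the part of RNA from other cells in the SOX levels of this class was not tested.

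The sexes were compared as 2 libraries, without a replicate. In SC-like cells *Sox2* was 1.23 times as high in the female as in the male library (1.19 to 1.27), and in differentiating-like cells 1.19 times (1.12 to 1.26). *Sox11* went the other way, at ratios of 0.89 (0.83 to 0.95) and 0.87 (0.82 to 0.93). *Sox9* was 1.11 (1.03 to 1.21) in SC-like and 0.90 (0.73 to 1.10) in differentiating-like cells. No member that reached 10 CPM was 1.5-fold apart in these classes, where 1.31% of 8573 features were higher and 1.33% lower by that much in female SC-like cells, and 1.22% of 8142 higher and 1.3% lower in female differentiating-like cells. *Sox2* was 1.55 (1.42 to 1.69) in transitional cells. In endocrine-like cells the female values of the 4 main members were higher, at ratios of 1.87 (1.65 to 2.13) for *Sox2*, 1.69 (1.28 to 2.22) for *Sox9*, 1.28 (1.20 to 1.36) for *Sox4* and 1.26 (1.15 to 1.38) for *Sox11*. *Sox5* was higher as well, at 1.47 (1.10 to 1.96), while *Sox12* was 0.85 (0.60 to 1.20) and *Sox3* 0.74 (0.27 to 1.85). The libraries differed there in lineage makeup, since gonadotroph-like cells were 517 of 1294 male and 61 of 342 female endocrine-like cells, and sex, library and makeup cannot be told apart.

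Genes that other tissues place downstream of SOX factors were followed from short lists. Of 13 cartilage genes known as targets of group E factors, 4 reached 10 CPM in SC-like or differentiating-like cells, and 3 of these were at least 2-fold lower in differentiating-like cells, beside the 10.7% of all features given above. *Mia*, a secreted protein of cartilage, was 790.1 and 1181 CPM in SC-like and 178 and 270.4 CPM in differentiating-like cells. The collagen genes *Col11a1* and *Col9a3* had ratios of 0.44 and 0.393 and of 0.242 and 0.336, and *Col9a2*, at 0.762 and 0.872, was not 2-fold lower. In endocrine-like cells, where 11.3% of all features were lower, *Mia* and *Col9a3* were lower, and *Col11a1* was not, with ratios of 1.34 and 0.609. The chondrocyte gene *Col2a1* was below 10 CPM in every class compared, *Acan* had at most 0.157 CPM, and *Matn1* and *Matn3* had no UMI there.

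Of 3 genes known as targets of group C factors, *Tubb3*, a tubulin of neurons and endocrine cells, was 2.21 and 0.476 CPM in SC-like, 34.5 and 8.37 CPM in differentiating-like and 268 and 190.3 CPM in endocrine-like cells. *Tead2*, a partner of YAP, was 82.0 and 74.3 CPM, 154 and 151 CPM and 17.2 and 30.9 CPM in the same classes. *Dcx* was 26.3 and 23.1 CPM, 45.9 and 48.0 CPM and 27.6 and 29.0 CPM. Of these 3 classes, *Tead2* and *Dcx* were thus highest in differentiating-like cells, as *Sox4* and *Sox11* were, and *Tubb3* was highest in endocrine-like cells, where *Sox4* and *Sox11* were lower. Neither *Tead2*, at 1.88 and 2.04, nor *Dcx*, at 1.74 and 2.08, was 2-fold higher in differentiating-like than in SC-like cells of both libraries, and *Tubb3* did not reach 10 CPM there in the female library. Of 3 genes known as targets of group B1 factors, *Notch1* fell from 29.4 and 32.9 CPM in SC-like to 11.1 and 15.4 CPM in differentiating-like and 3.78 and 5.55 CPM in endocrine-like cells. *Nes* and *Fabp7* did not reach 10 CPM in SC-like cells.

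The genes most like each main member were sought over the 14 values of 7 classes in 2 libraries, by Pearson's r of log2(CPM + 10), among 4221 genes. The points share their libraries and classes, and r is a description. For *Sox2* they were *Dtna*, *Met* and *Igf2bp2*, with r of 0.987, 0.986 and 0.984. For *Sox9* they were *Sdc4*, *Zfp36l2* and *Klf3*, with r of 0.985, 0.982 and 0.981. For *Sox4* they were *Gk5*, *Rpl4* and *1110038F14Rik* (r from 0.971 to 0.978), and for *Sox11* they were *Thumpd3*, *Bcl7a* and *Syne4* (r from 0.976 to 0.989). The level of *Sdc4*, a cell surface proteoglycan, was 156 and 167 CPM in SC-like and 39.6 and 46.7 CPM in differentiating-like cells. That of *Bcl7a*, a subunit of SWI/SNF remodelling complexes, was 51.7 and 52.3 CPM and 129 and 128 CPM.

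Among the other 10 genes of the family, *Sox13*, the remaining D gene, had the most UMIs, 624 (male) and 359 (female). Its level was 6.34 and 4.66 CPM in SC-like, 10.1 and 10.2 CPM in differentiating-like and 3.05 and 3.09 CPM in endocrine-like cells, so that it was highest in differentiating-like cells while *Sox6* was lower there. *Sox30* had 117 and 49 UMIs, *Sox14* 74 and 13, *Sox10* 52 and 13 and *Sox15* 34 and 28. *Sox1*, *Sox7*, *Sox17* and *Sox18* had between 0 and 16 UMIs in a library, and *Sry* had 0 UMIs in both.

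Some levels carry a limit from the gene models. On mm10, *Sox2* (chromosome 3, 34650405 to 34652461, plus strand) lies within *Sox2ot*, a noncoding gene of the same strand that is not among the features, and *Sox5* overlaps noncoding genes of its strand that are not features either. *Sox4* (chromosome 13, 28948919 to 28953713, minus strand), *Sox21*, *Sox5* and *Sox6* each overlap a noncoding gene of the opposite strand that is a feature of its own. *Sox9* (chromosome 11, 112782224 to 112787760, plus strand) has 3 exons. *Sox11* lies on chromosome 12, 27334264 to 27342574, on the minus strand. The longest run of bases that any pair of members shares is 48, between *Sox4* and *Sox11*.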

How the data were processed

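Single cells of dissociated pituitaries from *Sox9iresGFP/+* mice at P3, sorted for GFP, were measured in 1 library per sex, each a pool of 3 animals. The authors deposited raw UMI counts per gene and cell, made with Cell Ranger 3.0.2 against mm10 with the eGFP sequence added, and the submitters' processing notes also list R 3.6.0 and Seurat 3 and 4. Barcodes with at least 50 genes and a mitochondrial share of at most 3 SD above the mean were kept, which removed 159 of 10569 male and 85 of 5796 female barcodes. The files hold raw counts of single cells from which the classes were rebuilt, so they can differ from the clusters of the study.

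Cells took a class by the number of its markers with a raw UMI (3 for SC-like cells, 4 for the others). The SC-like class was given last, to cells that had reached no other class. The SOX members, marker lists and target lists were chosen with earlier results of these data known, and the numbers of markers were set after the marker counts, but not the SOX values, had been seen. Counts were summed per class and library and divided by the class total to give CPM, with exact Poisson limits. Shares of cells were taken after each cell was drawn down at random to 5000 UMIs, with exact Clopper-Pearson limits, and cells with fewer were left out (333 male and 94 female SC-like, 71 and 4 differentiating-like, 218 and 7 endocrine-like, 214 and 28 mesenchymal-like). A feature with at least 10 CPM in 1 of the classes compared, in both libraries, was counted as different where it differed at least 2-fold the same way in both (1.5-fold between the sexes), which is a rule of size and not a test. Named beside the members were, for *Sox2*, *Sox9*, *Sox4* and *Sox11*, the 3 genes of highest Pearson r outside the family and the marker lists, among genes with at least 50 CPM in 1 class of both libraries. Scrublet scores (scanpy 1.11.5) marked 867 male and 261 female cells as likely doublets, and these were kept. Python 3.11.15, numpy 2.4.6 and scipy 1.17.1 were used, and the scripts were tested on simulated data. Alternatives were a minimum of 2000 genes, no filter, doublets left out, 1 more marker per class and drawing down before summing.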

Additional observations from a re-analysis of the deposited data

How the results depend on the processing

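The change of the log2 ratio of *Sox4* and *Sox11* to *Sox2* and *Sox9* kept its direction under all 5 alternatives in both libraries. From SC-like to differentiating-like cells, where it was 1.65 (male) and 1.68 (female), it became 1.76 in the female library without marked doublets, 1.83 (male) and 1.80 (female) with 1 more marker per class, and 1.73 in the male library after drawing down to 5000 UMIs. From SC-like to endocrine-like cells, where it was 2.45 and 2.17, it became 2.76 and 2.32 without marked doublets and 2.72 in the male library after drawing down. The cause of these moves was not tested. The remaining 13 of the 20 values of this ratio moved by less than their counting limits. For *Sox2*, *Sox9*, *Sox4* and *Sox11* singly, 66 of 80 values did so and none reversed. The largest move was that of *Sox9* in the male library with 1 more marker, whose log2 ratio of differentiating-like to SC-like cells went from -1.72 to -2.25. Over all classes, the ratio moved most without marked doublets in mesenchymal-like cells, from 2.63 to 3.13 (male) and from 2.65 to 3.32 (female). An alternative chosen after the data were seen left 7 hormone genes out of the totals. The endocrine-like to SC-like ratio of *Sox11* then went from 1.05 to 1.13 in the male and from 1.5 to 1.62 in the female library. No paired analysis was possible because there is 1 library per sex. Depth limits *Sox3*, *Sox8* and *Sox21*, whose counts per class were at most 99 UMIs.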

Other observations

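Cells that reached no class, with a median of 1256.5 UMIs in the male library, had *Sox2* at 402 and 558 CPM in the male and female library, *Sox9* at 78.8 and 84.6 CPM, *Sox4* at 643 and 702 CPM and *Sox11* at 274 and 196 CPM. These levels of *Sox2* and *Sox9* lay between those of SC-like and differentiating-like cells in both libraries. For male *Sox2*, the limits (388 to 416 CPM) meet those of differentiating-like cells (378 to 400 CPM).

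Among the rare members of the family, *Sox14*, a group B2 gene, had 46 of its 74 UMIs in the male library and 7 of 13 in the female library in endocrine-like cells, and 1 and 0 in SC-like cells. *Sox15*, the only member of group G, had 18 of 34 and 17 of 28 UMIs in differentiating-like cells, and 5 and 3 in SC-like cells. Both were picked out after their counts were seen.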
